A study of Mus musculus with 30 samples.

Results

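The genes described here encode the proteins of the large (60S) subunit of the cytosolic ribosome. They are the rows of the expression table whose symbol starts with Rpl and a digit, or is Rplp0, Rplp1 or Rplp2, and holds no hyphen, which gave 52 of 23993 genes. No measured value entered that choice. The large subunit joins amino acids at its peptidyl transferase centre and lets the growing chain out through an exit tunnel. Its proteins are made in matched amounts, carried into the nucleolus and assembled on ribosomal RNA, and most of their mRNAs start with a run of pyrimidines through which mTOR signaling sets their translation. The stalk proteins Rplp0, Rplp1 and Rplp2 recruit the elongation factors, Rpl5 and Rpl11 join the subunit together with the 5S RNA, and several members have a paralog made in particular tissues.

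RNA was sequenced from tdTomato-positive cells sorted by FACS from the medial prefrontal cortex (mPFC) of C57BL/6 mice that were 6 to 12 weeks old and heterozygous for a Cre driver (Sst-Cre or Pvalb-Cre) and the Ai9 tdTomato reporter. The unstressed groups were Sst females (7 libraries), Sst males (7) and Pvalb males (7), and the stressed group was Sst males (3) after 14 days of chronic unpredictable stress (CUS). The reporter marks every cell in which the driver was ever active, and the sort pools the cells of an mPFC, so in these bulk samples fewer cells of a type cannot be told apart from less RNA per cell. Library titles were of 2 kinds: all females, all Pvalb males and 4 unstressed Sst males carried a number, while 3 unstressed Sst males and all CUS males carried a date-like code. They are called numbered and dated below, with no meaning beyond the title.

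The values were FPKM (fragments per kilobase of transcript, scaled to sequencing depth), whose total over all genes was 276023 to 432075 in the numbered libraries and 681118 or more in the dated ones. Small nucleolar RNA genes held 53.7% to 75.9% of that total in the dated libraries and 1.87% to 8.29% in the numbered ones, and all other genes together held 315485 to 378003 FPKM in the dated and 264467 to 416792 FPKM in the numbered libraries. The study's methods state a read depth per sample, but the files hold no read counts, and from the spacing of the lowest values the libraries lay between 0.46 and 2.48 times the depth of SST2-F, an estimate that at most 17.9% of low genes shared. SST0-M and SST1-M had almost the same values (SD of the log2 ratio 0.0212, against 0.267 for the second most alike male pair), as did PV0-M and PV2-M (0.0170 against 0.225), so each was counted as 1 sample, which left 22. The 12 microglia markers in the table summed to 3793 to 10677 FPKM per library, while the 10 interneuron markers summed to 34.1 to 296 FPKM, so defining interneuron transcripts were low in cells labelled as interneurons. Sst itself had 4.18 to 49.3 FPKM in libraries labelled Sst female, 0 to 6.02 in those labelled Sst male and 12.3 to 30.5 in those labelled Pvalb, so the level of Sst goes against the labels. Pvalb had 0.882 to 5.07 FPKM in libraries labelled Pvalb. It had 0 to 1.93 FPKM in those labelled Sst female and 0 to 0.835 FPKM in unstressed Sst males. Pvalb was thus higher where the labels put it, though low and with overlap. The names of the lines below are those of the labels. PV1-M, PV4-M and PV5-M are labelled male but had Xist above 100 FPKM, and the Pvalb comparisons are given with and without them. A supplementary legend of the study counts mice for its Sst and Pvalb comparison, but does not tie each library to an animal. The p-values therefore measure only the spread between these samples.

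The 60S genes were among the abundant transcripts of every library, but their levels were far from equal (heat map of members by library). Between 38 and 43 of the 52 genes were above 50 FPKM in a library, and their sum ran from 5310 FPKM in SST1-F to 16738 FPKM in SST1-M. On this per-length scale the highest means over the 22 samples were those of Rpl41, the smallest protein of the ribosome, at 511 FPKM, Rpl38 at 405, Rplp2 at 373, Rplp1 at 303 and Rpl39, which lines the exit tunnel, at 297. The steadiest was Rpl4, an exit tunnel protein, whose highest library (226 FPKM) was 1.69 times its lowest (134 FPKM). Rpl7a and Rpl14 spanned 1.84-fold and 1.97-fold. Rpl39, Rpl38 and Rpl41 instead spanned 24.3-fold, 22.8-fold and 18.3-fold, and Rpl22l1, the paralog of Rpl22, ran from 0.678 to 292 FPKM.

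**Figure D1:**
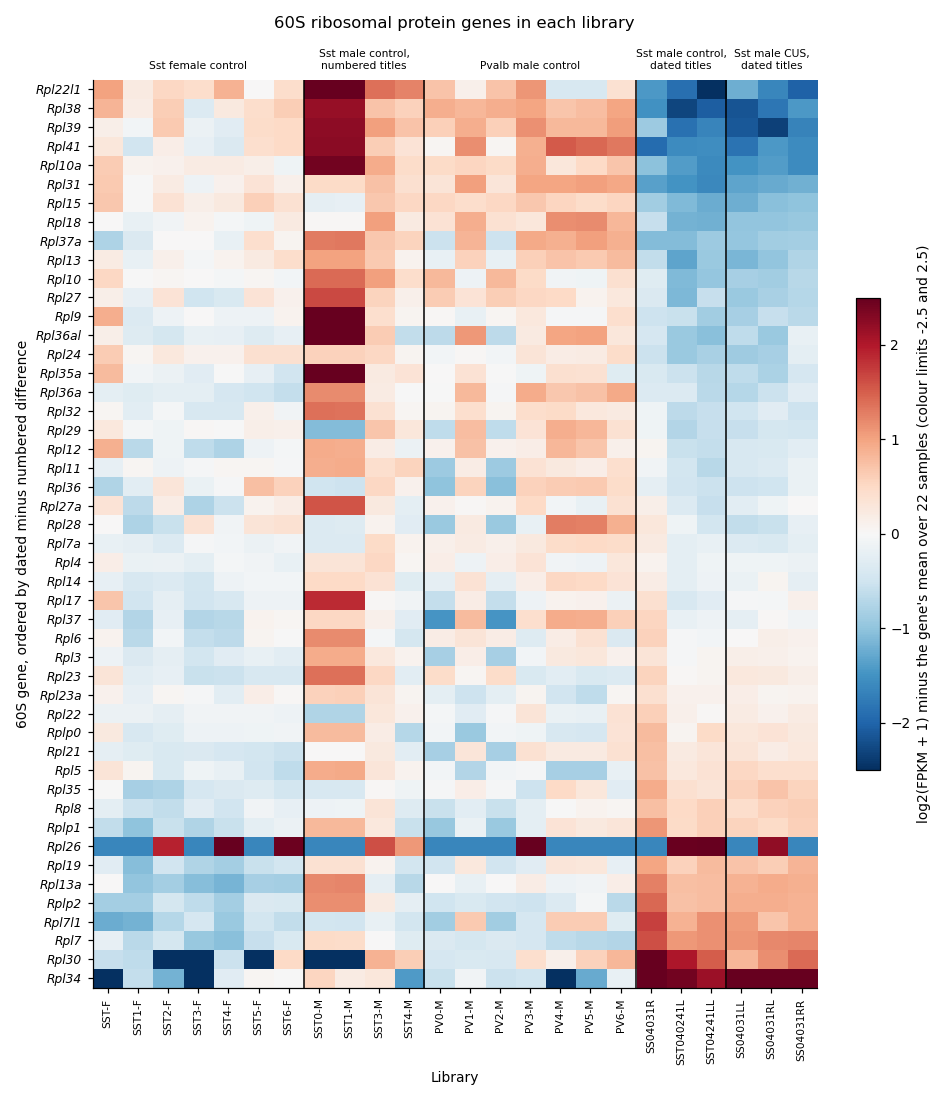
Level of each 60S gene (rows) in each of the 24 libraries (columns), as log2(FPKM + 1) minus the gene's mean over 22 samples. Rows are ordered by the difference between dated and numbered libraries, and Rpl3l, Rpl10l, Rpl39l and 1 gene not reported here are left out. The blue block of the 6 dated libraries runs from Rpl22l1 down through Rpl38, Rpl39 and Rpl41, the red block from Rpl34 up through Rpl7 and Rpl7l1, and SST0-M and SST1-M are dark red for Rpl22l1, Rpl38, Rpl39, Rpl41, Rpl10a, Rpl9, Rpl36al and Rpl35a.

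The tissue-restricted paralogs were barely present. Rpl10l, the testis paralog of the X-linked Rpl10, was listed at 0 in all 24 libraries. Rpl39l was listed at 0 in 20 libraries and reached 2.697 FPKM in SST4-F, and Rpl3l, the muscle paralog of Rpl3, was listed at 0 in 13 libraries and reached 1.74 FPKM in the CUS library SS04031RL. Their parents Rpl10, Rpl39 and Rpl3 averaged 282, 297 and 149 FPKM. The other paralogs were clearly present: Rpl36al averaged 162 FPKM beside 152 FPKM for its X-linked parent Rpl36a, Rpl22l1 had a median of 22.2 FPKM beside 25.8 FPKM for Rpl22, and Rpl7l1 averaged 15.1 FPKM beside 109 FPKM for Rpl7.

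A few members that every ribosome carries had values near or at 0. Rpl26 was listed at 0 in 8 libraries, its median over the 22 samples was 0.0023 FPKM, and its highest library was the dated control SST04241LL at 33.4 FPKM. Rpl30 was listed at 0 in 5 libraries and reached 43.6 FPKM in the dated control SS04031R, and Rpl34 was listed at 0 in 2 libraries. Such values cannot be read as absence, since ribosomal protein genes have many processed pseudogenes and how reads matching several copies were shared out is not stated. The 3 hyphenated pseudogene rows of the table bear on this directly. Rpl34-ps1 had 67.0 to 182 FPKM over the 24 libraries, against 0 to 141 FPKM for Rpl34. Rpl34 made up 0% to 12.1% of the sum of both rows in females, 3.72% to 9.97% in numbered males and 0% to 9.52% in Pvalb males, but 37.1% to 46.8% in dated control males and 38.3% to 67.8% in CUS males. Rpl14-ps1 was at 0 to 1.72 FPKM in numbered libraries and at 8.71 to 14.1 FPKM in dated ones. Rpl31-ps12 was at 0 to 1.49 FPKM in numbered libraries, 1.99 to 3.97 FPKM in dated controls and 4.90 to 9.45 FPKM in CUS males. Values of single ribosomal protein genes are therefore uncertain wherever such a copy exists.

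By RefSeq coordinates (GRCm38.p6, without regard to strand), 20 of the 52 genes contain 40 small nucleolar RNA genes, of which 21 are rows of the table and 7 of those were listed at 0 throughout. Rpl13a holds 4 of them, and Snord33 inside it was listed at 0 in every numbered library and at 118482 FPKM or more in every dated one. Snora21 inside Rpl23 averaged 1626 FPKM in dated controls and 1802 FPKM in CUS males, against 101 FPKM in females and 110 FPKM in Pvalb males. Between dated and numbered control males, a comparison described below, 2 of the 20 host genes passed the threshold, both lower in the dated libraries (Rpl10 and Rpl39), with a median log2 difference of -0.31, where 2.30% of all genes were lower and 1.81% higher. Of the 29 tested members without such a gene 6 passed as lower and 2 as higher, with a median of -0.90. Whether reads from the small RNAs entered the values of their hosts was not tested.

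The next comparison is between the kinds of title, in mice that were all unstressed Sst males. Dated were compared with numbered control males (3 samples each) by limma on log2(FPKM + 1), with Benjamini-Hochberg adjustment over all genes with a mean above 0.4 FPKM and a threshold of 0.05. Of the 49 members tested, 8 were lower in the dated males, where 2.30% of the 14230 genes tested were, and 2 were higher, where 1.81% were. The 8 were Rpl22l1, Rpl38, Rpl39, Rpl41, Rpl10a, Rpl31, Rpl37a and Rpl10, and the 2 were Rpl34 and Rpl7l1. The median log2 difference was -0.38 over the members, -1.14 over the 37 small-subunit (40S) genes found by symbol, of which 5 were lower and 0 higher, and -0.00 over all genes tested, and the 60S median was -0.0504 under quantile normalization. The groups did not overlap for 18 members on the lower side, where 17.0% of all genes did not, and for 7 on the higher side, against 16.4%.

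For the members past the threshold, 8 lower and 2 higher in the dated males, the sequence at the annotated start was read as a description. Whether shared control of transcription has a part in this difference between title kinds was not tested. RefSeq (GRCm38.p6) gave a promoter of 300 bases for 40 of the 52 genes. The letters CGGAAG, the core bound by ETS factors, were searched on both strands (CTTCCG on the other). They stood in 25 of the 47 promoters listed for those genes (53.2%, from 24 of the 40 genes), and in 16.9% of all 32851 promoters of that length. The pyrimidine-rich CTTTCC, searched likewise, was found in 27 of the 47 promoters (57.4%, from 25 of the 40 genes) and in 26.6% of all promoters. A C at the start followed by at least 4 pyrimidines was found in 7 of the 47 promoters, from 7 genes, and in 2.51% of all promoters. Each line below gives 60 bases before and 20 after the first start listed for a gene past the threshold, 5′ to 3′ on the gene's strand, with CGGAAG or CTTCCG in capitals.
Rpl22l1, chr3:28805448-28805527 (+): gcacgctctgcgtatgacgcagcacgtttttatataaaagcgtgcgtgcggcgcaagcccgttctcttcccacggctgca
Rpl38, chr11:114668520-114668599 (+): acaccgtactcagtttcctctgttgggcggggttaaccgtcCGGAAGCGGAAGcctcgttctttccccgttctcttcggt
Rpl39, chrX:37085203-37085282 (-): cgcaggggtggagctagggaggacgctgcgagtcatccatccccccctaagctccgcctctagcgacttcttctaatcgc
Rpl41, chr10:128549149-128549228 (-): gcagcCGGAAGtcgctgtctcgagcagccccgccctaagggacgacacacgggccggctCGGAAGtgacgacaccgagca
Rpl10a, chr17:28328411-28328490 (+): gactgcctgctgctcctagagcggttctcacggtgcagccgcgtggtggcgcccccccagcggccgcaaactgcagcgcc
Rpl31, chr1:39367791-39367870 (+): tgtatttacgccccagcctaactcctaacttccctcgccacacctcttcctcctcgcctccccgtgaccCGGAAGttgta
Rpl37a, chr1:72711200-72711279 (+): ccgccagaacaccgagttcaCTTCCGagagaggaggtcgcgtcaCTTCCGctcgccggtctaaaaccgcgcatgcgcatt
Rpl10, chrX:74270756-74270835 (+): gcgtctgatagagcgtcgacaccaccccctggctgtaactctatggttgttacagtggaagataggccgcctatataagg
Rpl7l1, chr17:46782637-46782716 (-): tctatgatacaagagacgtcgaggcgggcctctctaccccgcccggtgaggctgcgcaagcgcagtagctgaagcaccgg
Rpl34, chr3:130730379-130730458 (-): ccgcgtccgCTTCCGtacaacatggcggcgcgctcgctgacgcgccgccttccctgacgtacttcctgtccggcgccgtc
In these windows the letters occurred for Rpl38, Rpl41, Rpl31 and Rpl37a among the 8 genes that were lower and for Rpl34 of the 2 that were higher, so they did not separate the directions. The share over all promoters was not counted for windows this short, and a match describes the letters only.

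Among the members that were lower, the paralog Rpl22l1 differed most. The dated control males read 0.678, 4.07 and 5.96 FPKM, and the numbered ones 43.1 and 47.7 FPKM, with 290 FPKM in SST0-M and SST1-M counted as 1 sample. The groups did not overlap, and the log2 difference was -4.45 (SE 0.82, adjusted p = 0.031 by limma). Its parent Rpl22 did not follow: the dated males had 27.6, 29.5 and 40.9 FPKM and the numbered males 15.5, 29.0 and 33.0 FPKM, which overlapped (log2 difference 0.37, adjusted p = 0.542).

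Rpl38, which in mouse embryos is needed to translate particular Hox mRNAs, had 60.1, 71.1 and 105 FPKM in the dated and 451, 495 and 1368 FPKM in the numbered control males, a log2 difference of -3.12 (SE 0.49, adjusted p = 0.0211, limma). Rpl39 had 60.1, 69.4 and 118 FPKM against 361, 454 and 1042 FPKM (log2 difference -2.80, SE 0.48, adjusted p = 0.0261). Rpl41 had 97.9, 124 and 126 FPKM against 474, 568.1 and 1783 FPKM (log2 difference -2.75, SE 0.52, adjusted p = 0.0338). For all of them every dated value lay below every numbered one, and the pair SST0-M and SST1-M was the highest of its group. The log2 difference was set against the log2 coding length across the 48 tested members with a length in GENCODE M1, which lacks Rpl41. Pearson's r was 0.21 and Spearman's rho 0.22, a description across genes that share their libraries. The length was the longest coding sequence listed for a gene, which reached 3153 bases for Rpl24.

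Rpl10a, which forms the mobile L1 stalk beside the tRNA exit site, had 41.2, 47.1 and 61.0 FPKM in the dated and 173, 239 and 674 FPKM in the numbered males (log2 difference -2.60, SE 0.51, adjusted p = 0.0385, limma). Rpl31, a protein at the tunnel exit, had the smallest adjusted p of the members: 35.6, 38.4 and 42.7 FPKM against 147, 155 and 184 FPKM (log2 difference -2.02, SE 0.26, adjusted p = 0.0121). The zinc-binding Rpl37a had 47.9, 48.0 and 54.3 FPKM against 152, 165 and 257 FPKM (log2 difference -1.88, SE 0.30, adjusted p = 0.0234). Rpl10, which joins the subunit last and sits by the peptidyl transferase centre, had 119, 131 and 206 FPKM against 349, 519 and 682 FPKM (log2 difference -1.75, SE 0.38, adjusted p = 0.0492). None of these groups overlapped.

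Both members that were higher in the dated males were low in the numbered ones. Rpl34 had 63.2, 76.1 and 120 FPKM against 4.45, 16.6 and 18 FPKM (log2 difference 2.79, SE 0.52, adjusted p = 0.0327, limma), beside the pseudogene row described above. The sum of Rpl34 and Rpl34-ps1 was 171 to 256 FPKM (median 182) in the dated and 120 to 198 FPKM (median 167) in the numbered males. These sums overlapped, so the separation of the groups held for the Rpl34 row but not for both rows together. Rpl7l1 had 23.7, 29.0 and 43.5 FPKM against 8.86, 8.87 and 10.98 FPKM (log2 difference 1.61, SE 0.30, adjusted p = 0.0325). Rpl7, Rpl19, Rpl8, Rpl30 and Rpl35 also lay higher in every dated than in every numbered control male but did not pass the threshold (adjusted p = 0.0792, 0.207, 0.225, 0.158 and 0.212). The stalk gene Rplp0 had a log2 difference of 0.35, Rplp1 of 0.55 and Rplp2 of 0.59 (adjusted p = 0.649, 0.461 and 0.448). Rpl5 had 0.02 and Rpl11 -1.05 (adjusted p = 0.985 and 0.0986), and the difference between these 5S partners was not tested.

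**Figure D2:**
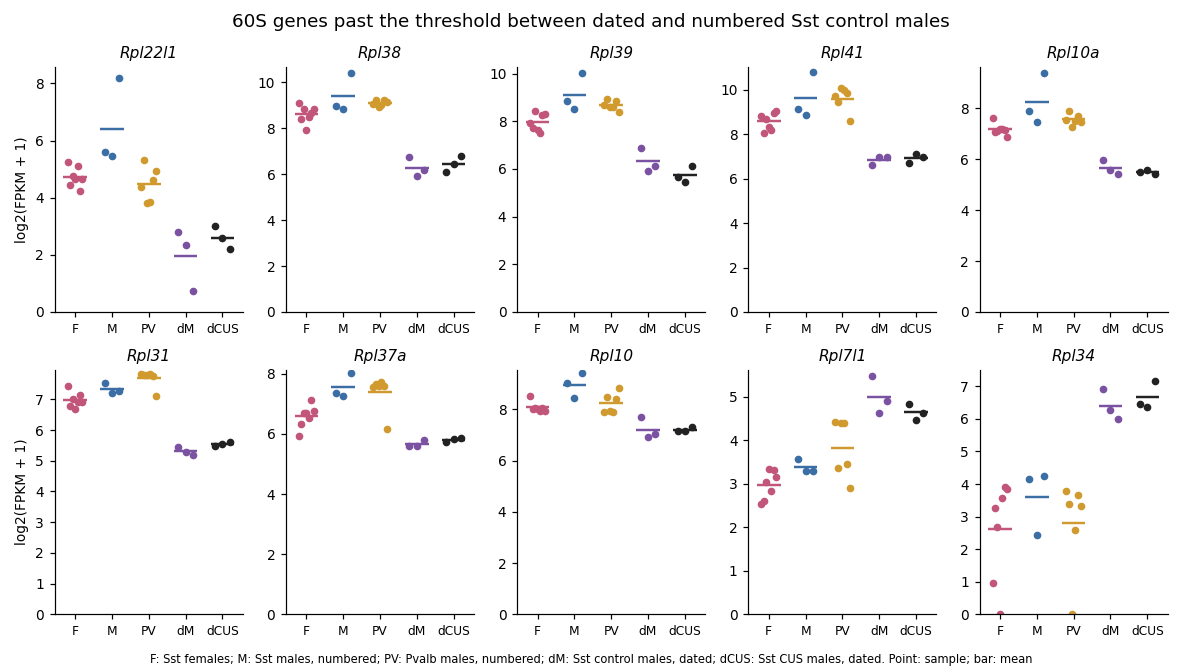
log2(FPKM + 1) in each of the 22 samples (points) and the group mean (bars) for the 10 members past the threshold between dated and numbered control males. F is Sst females, M numbered Sst males, PV Pvalb males, dM dated Sst control males and dCUS dated Sst CUS males. In the 8 genes from Rpl22l1 to Rpl10 both dated groups lie below the other 3, and in Rpl7l1 and Rpl34 above them.

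The calls rested on few samples. Without the pair SST0-M and SST1-M 16 members passed the threshold, 12 lower and 4 higher, where 13.7% of all genes passed in either direction. Without SST4-M 2 passed (Rpl31 and Rpl38, 0.976% of all genes), without SST3-M 0 (0.536%), without SS04031R 1 (Rpl31, 1.05%), without SST040241L 0 (0.381%) and without SST04241LL 0 (0.402%). Quantile normalization gave 9 lower and 4 higher, with 7.80% of all genes passing. In the same comparison 1 of 11 microglia markers tested passed the threshold, lower in the dated males, and the summed microglia markers were 4761 to 10677 FPKM in the dated and 6325 to 10475 FPKM in the numbered males. Their part in the 60S differences was not tested, and the small nucleolar RNA share moved with the title kind without exception.

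The 6 dated libraries, 3 of them from CUS males, were also set against all 18 numbered ones, females and Pvalb males included. These hold the control males of the comparison above, so agreement for its genes is partly fixed in advance. Near-identical libraries were counted separately here. Every dated library lay below every numbered library for 13 of the 49 members with a mean above 0.4 FPKM, where 6.21% of 14566 genes did, and above for 5 members, where 6.54% did. The 13 were the 8 above with Rpl9, Rpl13, Rpl15, Rpl18 and Rpl24, and the 5 were Rpl34 and Rpl7l1 with Rpl7, Rpl8 and Rpl19. Rpl38 had 60.1 to 110 FPKM in the dated and 238 to 1370 FPKM in the numbered libraries. Rpl15 had 15.9 to 20.8 FPKM against 33.5 to 62.9 FPKM. Rpl7 had 194 to 280 FPKM against 43.8 to 127 FPKM. For 40S genes the counts were 10 of 37 below and 0 above. The females, the Pvalb line and CUS are each tied to a title kind, so here title kind, sex, line and stress cannot be told apart.

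CUS moved no 60S gene past the threshold. Against the 3 dated control males, 0 of the 50 members tested passed by limma, where 0.00705% of 14186 genes did, and 1 member (Rpl30) had an unadjusted p under 0.05. Against all 6 male control samples 0 of 50 passed, where 0.00698% of 14319 genes did, and 1 member (Rpl39) had an unadjusted p under 0.05. Both comparisons use the same CUS samples and share the dated controls. The median log2 difference was -0.03 against the dated and -0.25 against all male controls, and over all genes it was 0.00 and 0.02. With SS04031R left out, the median against the dated controls was 0.09, and with SST040241L left out -0.11.

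Ribosomal proteins belong to the EIF2 signaling pathway that the stress comparison asks about, and 5 members named for it were read in every sample. The paper's text prints some of these symbols as Rpl221, Rppl35a and Rpl35al, read here as Rpl22l1, Rpl35a and Rpl36al. For these genes the paper reports lower expression in male Sst cells after CUS, by sequencing and by qPCR of sorted cells. Its qPCR values were not read here. Rpl22l1 had 3.63, 5.01 and 6.97 FPKM in CUS males, within the range of 0.678 to 5.96 FPKM in dated controls except for the highest, and below the 43.1 to 290 FPKM of numbered controls. Rpl10a had 41.9, 44.0 and 47.2 FPKM, against 41.2 to 61.0 in dated and 173 to 674 FPKM in numbered controls. Rpl35a had 73.1, 81.8 and 94.8 FPKM, against 79.2 to 98.4 and 150 to 757 FPKM. In these genes the CUS males overlapped the dated controls and lay below every numbered one. Rpl36al had 66.8, 82.4 and 112 FPKM, against 61.6 to 95.0 and 82.7 to 854 FPKM, and overlapped both. Rpl37a had 52.4, 56.1 and 57.1 FPKM, against 47.9 to 54.3 and 152 to 257 FPKM. Against the dated controls the log2 differences were 0.64 (SE 0.52) for Rpl22l1, -0.15 (SE 0.18) for Rpl10a, -0.09 (SE 0.17) for Rpl35a, 0.22 (SE 0.25) for Rpl36al and 0.14 (SE 0.13) for Rpl37a. Against all male controls they were -1.59 (SE 1.43), -1.45 (SE 0.79), -0.88 (SE 0.62), -0.64 (SE 0.73) and -0.80 (SE 0.55), with adjusted p between 0.641 and 0.747 by limma.

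**Figure D3:**
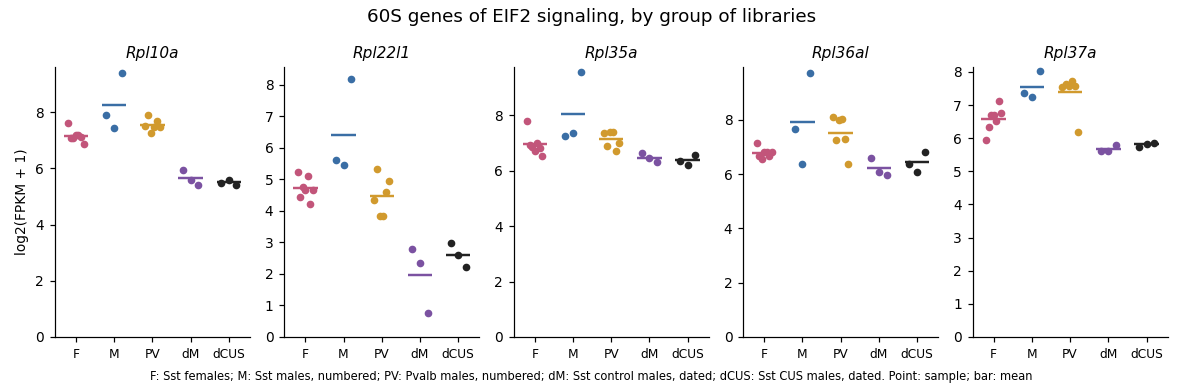
log2(FPKM + 1) of Rpl10a, Rpl22l1, Rpl35a, Rpl36al and Rpl37a in each sample (points) with group means (bars). F is Sst females, M numbered Sst males, PV Pvalb males, dM dated Sst control males and dCUS dated Sst CUS males. CUS males lie beside the dated controls in all 5 genes and below the numbered males in 4, Rpl36al overlapping them.

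The stalk genes were read in the same comparison, CUS against dated control males (plot of differences by title kind and by CUS). Rplp2 had 601, 616 and 617 FPKM after CUS and 543, 561 and 881 FPKM in dated controls, a log2 difference of -0.08 (SE 0.25, adjusted p = 0.917, limma). Rplp1 had 392, 412 and 422 FPKM against 390, 422 and 600 FPKM (log2 difference -0.18, SE 0.22). Rplp0 had 79.6, 82.6 and 86.2 FPKM against 71.2, 93.7 and 117 FPKM (log2 difference -0.15, SE 0.20). In all stalk genes the CUS values fell inside the control range, of which the top was the control SS04031R. That library was the highest of all 6 dated libraries for 38 of the 49 members, as it was for 36.2% of all genes.

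The members furthest from 0 were Rpl26 and Rpl30, both low. Rpl30 had 11.1, 14.2 and 17.0 FPKM after CUS and 18.4, 26.4 and 43.6 FPKM in dated controls, which did not overlap (log2 difference -0.95, SE 0.31, adjusted p = 0.647). Rpl26 was listed at 0, 0 and 13.4 FPKM after CUS and at 0, 16.3 and 33.4 FPKM in dated controls (log2 difference -1.79, SE 1.66). Rpl39 had 43.1, 49.9 and 68.7 FPKM against 60.1, 69.4 and 118 FPKM (log2 difference -0.57, SE 0.29, adjusted p = 0.647). The groups also did not overlap for Rpl7a, with 132, 136 and 145 FPKM after CUS against 146, 152 and 202 FPKM (log2 difference -0.26, SE 0.18, adjusted p = 0.67), nor for Rpl31, with 43.5, 45.4 and 47.7 FPKM against 35.6, 38.4 and 42.7 FPKM (log2 difference 0.22, SE 0.13, adjusted p = 0.651). Of 50 members, then, 2 lay wholly below and 1 wholly above the controls, where 9.39% and 9.33% of all genes did. Rpl5 and Rpl11 differed by -0.00 (SE 0.18) and 0.11 (SE 0.20) on the log2 scale, and Rpl41 by 0.07 (SE 0.19). A p that misses the threshold does not show that CUS left these genes alone. All 6 oligodendrocyte and all 6 endothelial markers had positive log2 differences against the dated controls, with medians of 0.93 and 1.40 and 0 past the threshold, and all 11 microglia markers tested had negative ones with a median of -0.61. Their part in the 60S values was not tested.

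**Figure D4:**
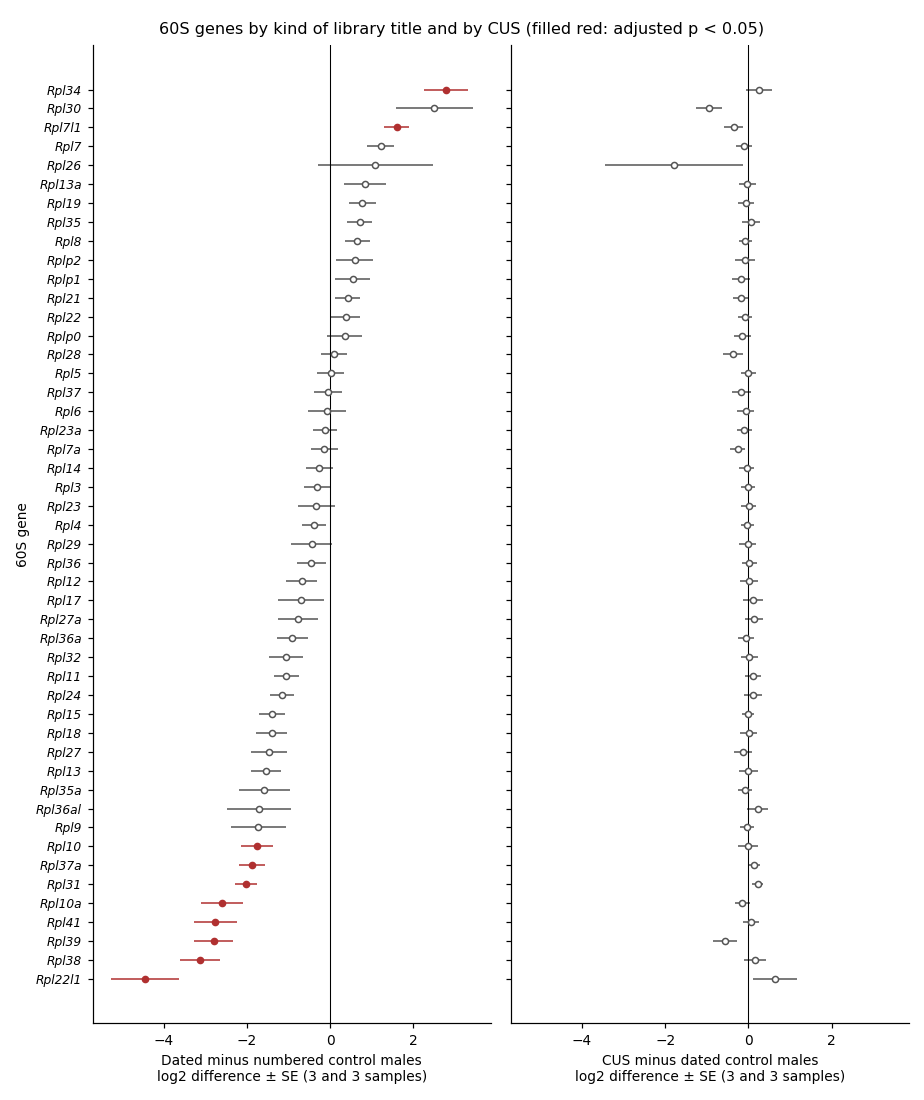
log2 difference ± SE (limma) of the members reported here between dated and numbered Sst control males (left) and between CUS and dated Sst control males (right), on the same horizontal scale, ordered by the left panel. Red filled points passed an adjusted p of 0.05. The left panel runs from -4.45 for Rpl22l1 to 2.79 for Rpl34, and the right panel has no red point.

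Females and males of the Sst line were compared because the study asks how unstressed cells differ by sex. Against all 6 male samples, 7 of 50 members were lower in the 7 females by limma, where 5.44% of 14498 genes were, and 0 were higher, where 6.28% were. They were Rpl13a, Rplp2, Rpl7, Rpl7l1, Rpl19, Rplp1 and Rpl21. The median log2 difference was -0.26 over the members, -0.21 over the 40S genes, of which 4 were lower, and 0.07 over all genes. With the small nucleolar RNA genes removed the 60S median was -0.00 and that of all genes 0.27. The males in this comparison mix numbered and dated titles, and Rpl7, Rpl7l1 and Rpl19 are members whose dated values lay above every numbered one. Quantile normalization gave 5 lower and 1 higher (Rpl24), and removal of the small nucleolar RNA genes 5 lower and 1 higher (Rpl15), while the split over all genes went from 910 higher and 789 lower to 1249 and 597 with median scaling and 2003 and 407 with that removal.

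Rplp2 had a lowest, median and highest value of 180, 210 and 255 FPKM in females and 281, 552 and 881 FPKM in males, without overlap (log2 difference -1.31, SE 0.25, adjusted p = 0.0108, limma). Rplp1 had 138, 190 and 252 FPKM against 191, 406 and 600 FPKM (log2 difference -1.0003, SE 0.25, adjusted p = 0.024). Rplp0 had 51.0, 61.9 and 79.5 FPKM against 41.0, 85.4 and 118 FPKM (log2 difference -0.40, adjusted p = 0.254). Of the stalk genes, then, only Rplp2 had separate groups, and the 7 calls included Rplp1 but not Rplp0.

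Rpl13a, which in activated myeloid cells leaves the ribosome to repress particular mRNAs, had 59.9, 74.3 and 135 FPKM in females and 83.1, 229 and 324 FPKM in males (log2 difference -1.33, SE 0.31, adjusted p = 0.0201, limma). Rpl7 had 43.8, 60.8 and 79.1 FPKM against 74.2, 160 and 280 FPKM (log2 difference -1.28, SE 0.29, adjusted p = 0.0166). Its paralog Rpl7l1 had 4.76, 7.28 and 9.11 FPKM against 8.86, 17.4 and 43.5 FPKM (log2 difference -1.23, SE 0.34, adjusted p = 0.0346). These groups overlapped at the lowest males. Rpl19, which bridges the subunits, had 79.7, 114 and 138 FPKM against 123, 235 and 332 FPKM (log2 difference -1.03, SE 0.23, adjusted p = 0.0172). Rpl21 had 88.2, 98.1 and 110 FPKM against 107, 151 and 216 FPKM (log2 difference -0.59, SE 0.17, adjusted p = 0.0405). Rpl8 and Rpl5 fell just outside the threshold, with adjusted p of 0.0501 and 0.0509.

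With numbered males alone (3 samples), which share the females and the title kind, 2 of 50 members were lower in females, where 1.66% of 14443 genes were, and 0 were higher, where 1.75% were. They were Rpl10 and Rpl11, neither of them among the 7. Under median scaling, quantile normalization or removal of the small nucleolar RNA genes 0 passed, where 4.13%, 2.52% and 5.02% of all genes did, and the 60S median was -0.47, -0.28 and -0.38. Rpl10 had 245, 259 and 364 FPKM (lowest, median and highest) in females and 349, 519 and 682 FPKM in the numbered males (log2 difference -0.89, SE 0.22, adjusted p = 0.0483, limma). Rpl11 had 150, 170 and 179 FPKM against 232, 254 and 327 FPKM, without overlap (log2 difference -0.67, SE 0.16, adjusted p = 0.0453). The median log2 difference was -0.64 over the members, of which 45 were below 0, -0.66 over the 40S genes and 0.05 over all genes. Females lay below every numbered male for 7 members, where 4.48% of all genes did: Rpl3, Rpl11, Rpl22l1, Rpl36a, Rpl37a, Rpl39 and Rplp2. Of the 7 genes called against all males, Rplp2 (log2 difference -1.01), Rpl13a (-0.92), Rplp1 (-0.73), Rpl7 (-0.67), Rpl19 (-0.64), Rpl7l1 (-0.42) and Rpl21 (-0.38) kept their sign with adjusted p of 0.0573 to 0.273.

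Of the X-linked members, Rpl10 had a log2 difference between females and males of -0.01 against all males and -0.89 against numbered ones. Rpl36a had -0.37 (adjusted p = 0.329) and -0.82 (adjusted p = 0.0691), and Rpl39 had 0.26 (adjusted p = 0.779) and -1.14 (adjusted p = 0.0669). Rpl5 had -0.64 and -0.63, close in both, with adjusted p of 0.0509 and 0.142 by limma. Rpl41 and Rpl22l1 changed sign between the comparisons, from 0.35 to -1.03 and from 0.54 to -1.69, with adjusted p of 0.0707 or more.

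The counts moved with single libraries. Against numbered males 15 members passed without SST4-M, where 7.55% of all genes did, 8 without SST-F (12.4%), and 0 without any other sample (0.692% to 6.22%). Against all males 13 passed without SST4-M (17.1%), 12 without SST0-M and SST1-M (24.5%), 10 without SST-F (14.4%), and 4 without SST1-F (5.28%), SST3-F (5.24%) or SS04031R (4.59%). Leaving out both the pair and SST-F gave 13 against all males (29.6%) and 14 against numbered males (21.97%), all lower. Markers moved with these differences. Against numbered males 5 of 12 microglia markers were lower in females and 1 was higher, with a median log2 difference of -0.93 and sums of 3951 to 7067 FPKM in females and 6325 to 10475 FPKM in the males. Against all males 3 were lower and 1 higher, with a median of -0.61. All 6 endothelial markers were above 0 against numbered males, with a median of 1.04 and 1 past the threshold, and Sst itself was higher in females by 2.38 on the log2 scale against all males (adjusted p = 0.0185, limma) and by 2.26 against numbered ones (adjusted p = 0.0912). Their part in the 60S differences was not tested.

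**Figure D5:**
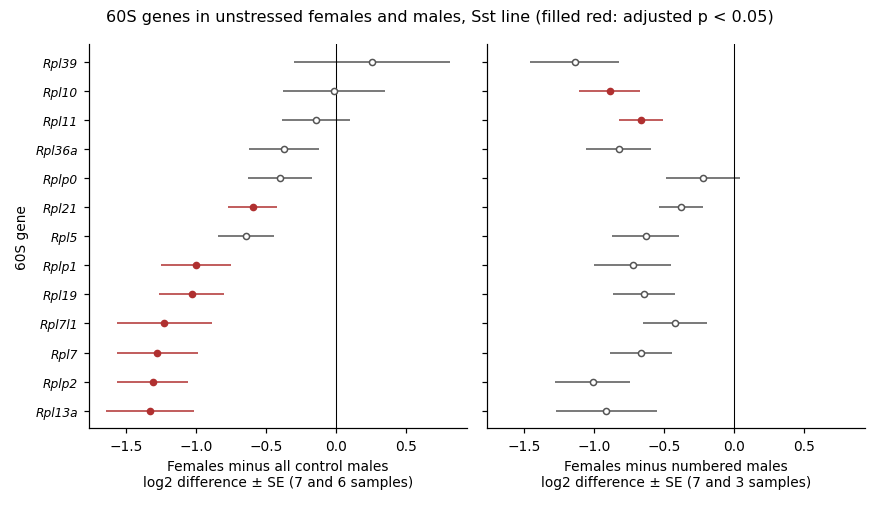
log2 difference ± SE (limma) between Sst females and all control males (left) or numbered control males only (right), on the same horizontal scale, for the 9 members past the threshold in either comparison and for Rpl5, Rpl36a, Rpl39 and Rplp0. Red filled points passed an adjusted p of 0.05. The 7 red points on the left range from -1.33 to -0.59, and Rpl10 and Rpl11 are red on the right only.

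Libraries labelled Sst and Pvalb were compared without stress, although Sst itself was lower in the former, against the labels (log2 difference -2.05, adjusted p = 0.0488 with all Sst samples and -1.62, adjusted p = 0.0876 with numbered ones, limma). Pvalb was also lower in libraries labelled Sst, which goes with the labels (-1.42, adjusted p = 0.00441, and -1.40, adjusted p = 0.00845, limma). Between all 13 Sst and 6 Pvalb samples, 2 of 49 members were lower in Sst by limma, where 4.50% of 14524 genes were, and 0 were higher, where 3.30% were. With numbered titles only (10 Sst samples), sharing the Pvalb samples and most Sst samples, 3 of 49 were lower, where 5.34% of 14483 genes were, and 0 were higher, where 4.87% were. These shares were near the background. In both comparisons 7 of the Sst samples were females, while all Pvalb samples are labelled male, so sex is mixed into the difference between lines. The median log2 differences were -0.19 and -0.24 over the members and 0.00 and 0.01 over all genes.

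Rpl36a had 137, 239 and 269 FPKM (lowest, median and highest) in Pvalb males, against 91.4, 112 and 118 FPKM in Sst females and 138, 160 and 317 FPKM in numbered Sst males. The log2 difference was -0.87 (SE 0.22, adjusted p = 0.0209) with all Sst samples and -0.80 (SE 0.23, adjusted p = 0.0348) with numbered ones. Rpl18 had 152, 230 and 285 FPKM in Pvalb males, against 110, 121 and 146 FPKM and 128, 146 and 254 FPKM, with log2 differences of -0.93 (SE 0.26, adjusted p = 0.0312) and -0.68 (SE 0.19, adjusted p = 0.0307). Rpl31 had 137, 220 and 227 FPKM in Pvalb males, against 102, 121 and 173 FPKM and 147, 155 and 184 FPKM (numbered log2 difference -0.60, SE 0.16, adjusted p = 0.0256). All 3 genes overlapped between the lines. The sample from PV0-M and PV2-M was the lowest Pvalb sample for Rpl36a and Rpl31 and read 162 FPKM for Rpl18.

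With the 3 Pvalb libraries that have Xist left out, 0 members passed in either comparison, where 0.0964% and 0.0622% of all genes did. Without the pair PV0-M and PV2-M 7 and 10 passed (14.7% and 19.9% of all genes), without SST0-M and SST1-M 6 and 8 (13.2% and 18.1%), and without SST3-M 4 and 6 (8.97% and 13.7%). Without PV1-M, PV4-M, PV5-M or PV6-M 0 did in either comparison (2.68% to 4.94% and 3.83% to 7.23%), and in the numbered one 1 passed without PV3-M, SST1-F, SST2-F, SST4-F or SST5-F (6.50% to 7.89%). The numbered Sst females SST1-F to SST6-F alone against Pvalb males gave 21 members, all lower in these females, where 31.6% of all genes passed. Sex and line cannot be told apart in that fit. With male Sst controls alone 3 members were higher in Sst (Rpl5, Rpl7 and Rplp2) and 0 lower, where 3.41% of all genes passed. Rpl18 and Rpl36a thus did not pass there. These Sst males mix dated and numbered titles while all Pvalb males are numbered, so title kind is mixed into that fit. Quantile normalization gave 1 lower and 2 higher (Rpl5 and Rpl23a) with all Sst samples, and 2 lower and 1 higher (Rpl23a) with numbered ones. The stalk genes had log2 differences of 0.20 (Rplp0), -0.26 (Rplp1) and 0.09 (Rplp2) in the numbered comparison, and Rpl41 had -0.72 (adjusted p = 0.164). Microglia markers had a median log2 difference of -0.70 there, with 2 of 12 lower in Sst, excitatory neuron markers -0.93 with 2 of 5 lower and endothelial markers 2.36 with 5 of 6 higher, while interneuron markers had -0.14 with 1 of 9 (Pvalb) lower. Their part was not tested.

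Factors that build the large subunit and the other mRNAs of the pyrimidine-tract class were read beside the members. Of 39 assembly factors (among them the nucleolar proteins Npm1 and Ncl and the export adaptor Nmd3), 0 passed between dated and numbered control males, with a median log2 difference of 0.05, and 0 after CUS against the dated controls, with a median of -0.00. In females 11 of the 39 were lower against all males, where 5.44% of all genes were, and 0 against numbered males, where 1.66% were, with medians of -0.30 and -0.24. Between the lines 1 and 3 of the 39 were lower in Sst. Of 16 other pyrimidine-tract mRNAs (such as Eef1a1, Eef2 and Tpt1), 1 was lower in dated males, 0 passed after CUS against either set of controls, and 3 were lower in females against all males and 0 against numbered ones. Their median between dated and numbered males was -0.12, against -0.38 over the 60S genes.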

How the data were processed

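The authors deposited a table of FPKM values (fragments per kilobase, scaled to depth) per gene. Per the labels the reads were handled with TopHat2, Cufflinks and Cuffdiff on mm10. The paper's methods name TopHat2 with mm9, HISAT2 and StringTie with mm10, and batch removal with ComBat, and which steps made these values is not given in the sources used here. The study's methods give a read number per sample but the table holds no counts, so no counting interval is given. Of 30 labelled samples, 6 were not analysed here. Some genes that enter the counts are not reported by name here.

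Near-identical libraries (SD of the log2 ratio over genes above 5 FPKM under 10% of the next pair's) were averaged. The fits ran on log2(FPKM + 1), for genes averaging more than 0.4 FPKM in a comparison's samples, with limma 3.58.1 (trend, robust; R 4.3.3) in 7 comparisons, two-sided, adjusted over all genes tested. Differences on this scale understate changes of low genes. The fits were tested on simulated data. Members, gene lists and tests were chosen with earlier results of these data known. Named members are the paralogs with their parents, the stalk, X-linked and 5S-particle genes, Rpl41, the 5 drawn for EIF2 signaling, the 5 highest and lowest, those listed at 0, and all past the threshold in a comparison; other members were named for not overlapping, for steadiness or for an alternative after their values were seen. Alternatives were another pseudocount (0.1), no filter, other scalings, separate near-identical libraries and each sample left out. Same-numbered samples did not deviate together (r from -0.05 to 0.05). Samples with different numbers were not read beside them, so whether the numbers pair samples is not settled.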

Additional observations from a re-analysis of the deposited data

Results flagged for a closer look

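A sample far from the rest of its group was looked for by Dixon's test in 151 sets of values (each 60S gene in Sst females, Sst control males and Pvalb males). It found 31, and chance gives about 1 in 20 for independent sets, which these are not since they share libraries. The test was not run on all genes, so the 31 alone are not a result about the members. They came from few samples: 13 from SST0-M and SST1-M (counted as 1 sample), 9 from SST-F, 8 from PV0-M and PV2-M (likewise) and 1 from PV3-M.

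In the pair SST0-M and SST1-M all 13 were the highest of the 6 control males. The values were 1783 FPKM for Rpl41, 1368 for Rpl38, 854 for Rpl36al, 805 for Rpl9, 757 for Rpl35a, 674 for Rpl10a, 658 for Rpl17, 523 for Rpl32, 317 for Rpl36a, 290 for Rpl22l1, 278 for Rpl3, 241 for Rpl27a and 225 for Rpl23. The next male of Rpl9 stood at 160 FPKM and that of Rpl35a at 162 FPKM. Over all members the pair exceeded both other numbered males for 33 of 49, where 39.7% of all genes did. It lay below both for 10, where 47.1% of all genes did.

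SST-F was the highest of 7 females for Rpl10 (364 FPKM), Rpl17 (292), Rpl12 (262), Rpl9 (224), Rpl35a (223), Rpl10a (196), Rpl36al (141), Rpl13a (135) and Rpl23 (107). Over 49 members it was above all other females for 25 and below them for 4, where 31.5% and 29.8% of all genes were. No such share was counted for the pair PV0-M and PV2-M. The pair PV0-M and PV2-M was the lowest of 6 Pvalb samples for Rpl13 (171 FPKM), Rpl31 (137), Rpl36a (137), Rpl36 (96.9), Rpl11 (91.0), Rpl21 (71.8), Rpl37a (71.4) and Rpl37 (34.1). Rpl26 read 23.3 FPKM in PV3-M and at most 0.0026 FPKM in the other Pvalb samples.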

How the results depend on the processing

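Counts of 60S genes past the threshold follow. The share of all genes past it also moved between fits and is given above for several of them. It is not given for separate near-identical libraries or for no filter, so these counts alone are not results about the members. Sex against all males (7): 11 with near-identical libraries separate, 13 without the pair SST0-M and SST1-M and SST-F together, 4 to 13 with each sample left out. Sex against numbered males (2): 1 without a filter, 0 under median scaling, quantile normalization or removal of small nucleolar RNA genes, 19 with near-identical libraries separate, 14 without the pair and SST-F, 0 to 15 with each sample left out. Dated against numbered males (10): 5 without a filter, 17 with near-identical libraries separate, 0 to 16 with each sample left out. Sst against Pvalb with all Sst samples (2): 1 with near-identical libraries separate, 0 without the Xist libraries, 0 to 7 with each sample left out. Sst against Pvalb with numbered titles (3): 0 without the Xist libraries, 0 to 10 with each sample left out. The CUS counts were 0 under all alternatives run, controls of both sexes included. Median log2 differences that moved by over 1 SD between samples were those of sex against numbered males (-0.64), at -0.28 under quantile normalization, -0.38 with small nucleolar RNA genes removed and -0.79 to -0.38 with each sample left out, and of dated against numbered males (-0.38), at -0.0504 under quantile normalization. The cause of these moves was not tested.

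With a replicate block on the shared number, 0 members passed between the sexes and 19 between Sst females and Pvalb males. The same samples without the block gave 0 and 21 (all genes: 0.0770% and 27.6% with it, 0.168% and 31.6% without). The block was added after the data were seen, as were the fits without the Xist libraries or the pair and SST-F. Whether the shared number pairs samples is not known. Over 427 refits of called genes none changed sign and 150 lost the threshold. Rpl13a, Rpl7 and Rplp2 kept it in all 20 refits of sex against all males. Each of those refits kept dated males, so they cannot part sex from title kind. Against numbered males alone the adjusted p of these genes was 0.154, 0.106 and 0.0573 by limma. Scaling moved the median of all genes in the sex comparison from 0.07 to 0.13 (median scaling) and 0.27 (small nucleolar RNA genes removed), where the 60S median was -0.00. Without counts in the table the counting error of single values is unknown.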

Other observations

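The Pvalb libraries with Xist lay apart from the other Pvalb samples for many members, of which 4 were picked after their values were seen. Others not picked lay apart too, in both directions. Rpl12 had 229 to 251 FPKM with Xist against 152 to 158 FPKM, and Rpl10 235 to 241 FPKM against 337 to 450 FPKM. Neither the members that lay apart nor the share over all genes was counted, so this is no result particular to the 4. Rpl7l1 read 20.4, 20.0 and 20.1 FPKM in PV1-M, PV4-M and PV5-M, which have Xist, and 6.46, 9.22 and 10.0 FPKM in the others. Rpl36al read 273, 255 and 258 FPKM in the former and 80.9, 150 and 155 FPKM in the latter, and Rpl6 154, 141 and 160 FPKM against 95.3, 98.5 and 140 FPKM. Rpl5 went the other way, with 56.9, 53.1 and 52.7 FPKM against 83.5, 90.5 and 92.4 FPKM. These libraries were not tested against each other, since no label divides them.

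The 60S sum as a share of all FPKM outside the small nucleolar RNA genes was 2.01% to 2.49% in females, 2.41% to 4.02% in numbered control males, 1.77% to 2.11% in dated control males, 1.81% to 1.92% in CUS males and 2.07% to 2.97% in Pvalb males. The small-subunit sum was 3396 to 4821 FPKM in dated control males and 3592 to 3956 FPKM in CUS males, against 5651 to 14969 FPKM in numbered control males.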
